A study of Mus musculus with 20 samples.

Results

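Tg, Tshr, Slc5a5 and Slc26a4 are 4 thyroid genes whose proteins are targets of autoantibodies in autoimmune thyroid disease. They were taken by gene symbol from a table of 51810 genes and compared over its 4 groups. All 4 were among the 28932 genes that passed the filter on low counts. The cells were medullary thymic epithelial cells (mTEC), sorted from the thymus of mice 4 to 5 weeks old after enrichment for EpCAM-positive cells, with 75000 cells per sample. The 4 groups, with 3 libraries each, were mTEClo and mTEChi of mice labelled Trp53-WT (WT here) and of mice labelled Trp53-cHyper (cHyper here). The sources used here give neither the allele behind cHyper, nor the driver of any recombinase, nor the number of mice per sample, nor the gates that separate mTEClo from mTEChi. The series title names immune tolerance, repression of p53 and noisy chromatin accessibility.

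Thyroid follicular cells make thyroid hormone on thyroglobulin, the large secreted protein encoded by Tg. The sodium/iodide symporter, encoded by Slc5a5, brings iodide in from the blood, and pendrin, the anion exchanger encoded by Slc26a4, is thought to pass it on into the follicle. Iodide is then coupled to thyroglobulin, and the thyrotropin receptor, encoded by Tshr, drives these steps when thyrotropin binds. Mature mTEC transcribe many genes of other organs, in part through the nuclear protein Aire, and developing T cells that react to the products can be deleted or diverted to a regulatory fate. Patients who lack AIRE can develop autoimmunity against endocrine organs.

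Promoter sequence was at hand for 2 of the 4 genes, and both are printed because Slc26a4 differed between mTEClo and mTEChi while Slc5a5 did not pass that test. Each line gives the 250 bases before the RefSeq start (GRCm38.p6, 5′ to 3′ in the direction of the gene, minus strand of the chromosome), with the motif matches in capitals. The Slc5a5 stretch is chr8:70892758-70893007 and the Slc26a4 stretch is chr12:31559985-31560234.
Slc5a5: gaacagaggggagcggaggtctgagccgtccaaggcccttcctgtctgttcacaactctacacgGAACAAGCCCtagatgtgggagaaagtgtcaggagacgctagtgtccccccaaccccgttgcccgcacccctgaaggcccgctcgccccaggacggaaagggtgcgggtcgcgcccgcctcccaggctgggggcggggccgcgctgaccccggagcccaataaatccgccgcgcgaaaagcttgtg
Slc26a4: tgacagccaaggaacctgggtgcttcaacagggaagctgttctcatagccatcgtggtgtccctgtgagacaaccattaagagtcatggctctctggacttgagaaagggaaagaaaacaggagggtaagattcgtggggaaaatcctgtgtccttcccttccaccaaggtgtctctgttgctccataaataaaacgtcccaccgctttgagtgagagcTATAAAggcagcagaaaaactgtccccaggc
The capitals in Slc5a5 mark a match to the Trp53 half-site, read on both strands, 186 to 177 bases before the start. Such a match occurred in 7.13% of 32851 mouse promoters of the same length. The capitals in Slc26a4 mark TATAAA, 31 to 26 bases before the start, a match found in 12.4% of those promoters on either strand. The third motif searched, CAAGTG, a core bound by the thyroid factor Nkx2-1, was in neither stretch and in 11.6% of all promoters, and it cannot overlap TATAAA. The Slc5a5 stretch held 66.4% G and C and 21 CpG, against medians of 52.4% and 6 over all promoters, and 14.2% of promoters were richer in G and C. The Slc26a4 stretch held 49.6% G and C and 4 CpG, and 58.9% of promoters were richer.

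Library totals ran from 22.02 to 47.93 M fragments. Replicate 3 of every group was the shallowest library of its group (at most 25.3 M) and carried Xist RNA (1049 to 1704 CPM of the library total) and no Ddx3y fragment, whereas replicates 1 and 2 had Xist at 7.77 CPM or less and Ddx3y at 2745 fragments or more. These differences were balanced over the groups. All 15 mTEC marker genes were detected in every group. Aire stood at 14.3 ± 2.60 CPM in WT mTEClo, 44.5 ± 6.46 in cHyper mTEClo, 1920 ± 2.83 in WT mTEChi and 1645 ± 321 in cHyper mTEChi (mean ± SD, n = 3). Fezf2, a further transcription factor for self-antigens in mTEC, stood at 157 ± 5.22, 139 ± 29.3, 468 ± 57.1 and 446 ± 33.5 CPM in the same order. CPM here are fragment counts relative to the library total on the TMM scale, which corrects that total for composition and makes no correction for gene length. Nothing in the labels says that the libraries came from separate animals. The p-values rest on how far the libraries of a group spread, and the part of that spread that lies between replicates 1 and 2 may be technical.

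The first comparison asked how the 4 genes differ between mTEClo and mTEChi. Tg, Slc26a4 and Tshr were higher in mTEChi than in mTEClo in both genotypes, and Slc5a5 did not pass the test in either. A gene was called at an adjusted p under 0.05 (edgeR quasi-likelihood test, Benjamini-Hochberg over the 28932 genes). In WT 3 of the 4 genes were called higher and none lower, against 40.2% of all tested genes called higher and 29.4% called lower. In cHyper the same 3 were called higher and none lower, against 38.7% and 25.8%. The median log2 change of all tested genes between the cell types was 0.12 in WT and 0.13 in cHyper, so the folds below are far above the general shift for these 3 genes. Such calls were common, and 3 of 4 is not by itself particular to this set. The share of all tested genes without overlap between the cell types was not counted. The separation of libraries described below for each gene is thus weak evidence by itself. In WT the Slc5a5 libraries did not overlap between the cell types either, although that gene was not called (edgeR adjusted p = 0.508).

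**Figure D1:**
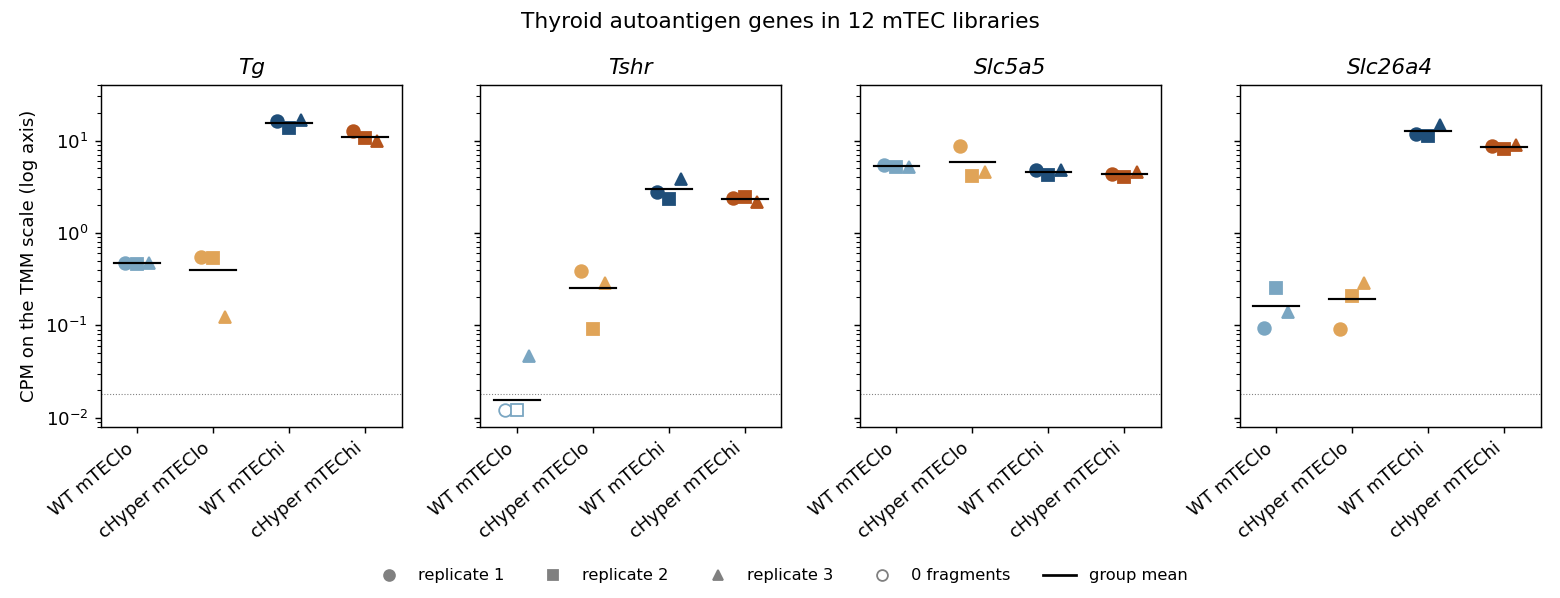
CPM of each gene in each of the 12 libraries (log axis, symbols by replicate number, black lines at the group means, open symbols below the dotted line for libraries with 0 fragments). Tg, Tshr and Slc26a4 lie higher in every mTEChi library than in any mTEClo library, while the Slc5a5 libraries lie between 4.04 and 8.80 CPM in all groups. The share of all tested genes with such a separation was not counted.

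Tg (ENSMUSG00000053469, mm10 chromosome 15, 66670753 to 66850721, plus strand) spans 56 annotated exon intervals with a gene length of 8.883 kb. The 3 WT mTEClo libraries held 20, 20 and 10 Tg fragments, which is 0.472, 0.463 and 0.469 CPM. In WT mTEChi the libraries held 774, 630 and 467 fragments, or 16.4, 13.6 and 16.8 CPM. Every mTEChi library was far above every mTEClo library. Tg was 33.2-fold higher in WT mTEChi (log2 5.05, SE 0.29, edgeR adjusted p = 1.24e-09). In cHyper mTEClo the libraries held 24, 23 and 3 fragments (0.548, 0.529 and 0.122 CPM), and in cHyper mTEChi 572, 462 and 242 (12.6, 10.7 and 9.95 CPM). The cHyper groups did not overlap either, and Tg was 25.4-fold higher in mTEChi (log2 4.67, SE 0.28, edgeR adjusted p = 3.76e-09). In WT 11.7% of tested genes had a larger log2 rise than Tg, and in cHyper 11.1%.

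An opposite-strand gene, Sla, which encodes an adaptor of lymphocyte receptor signalling, lies inside the Tg span without sharing an exon base. Sla was higher in mTEChi too, at 0.745 ± 0.602 and 11 ± 1.25 CPM in WT (n = 3, edgeR adjusted p = 9.85e-06). A second opposite-strand gene, Gm17140, shares 112 exon bases with Tg and held 85 fragments over all 12 libraries. Whether the counting used strand is unknown from the sources used here, and reads from the shared bases are uncertain.

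Slc26a4 (ENSMUSG00000020651, mm10 chromosome 12, 31519827 to 31559969, minus strand, 3.109 kb, 22 exon intervals) was scarce in mTEClo. Its WT mTEClo libraries held 4, 11 and 3 fragments, or 0.0945, 0.255 and 0.141 CPM. The WT mTEChi libraries held 559, 521 and 407, or 11.9, 11.3 and 14.7 CPM. The 2 groups were far apart, and the difference was 73.7-fold (log2 6.20, SE 0.32, edgeR adjusted p = 4.75e-10). In cHyper the mTEClo libraries held 4, 9 and 7 fragments (0.0914, 0.207 and 0.285 CPM) and the mTEChi libraries 394, 349 and 216 (8.65, 8.05 and 8.88 CPM). These groups were again separate, with a 46.1-fold difference (log2 5.53, SE 0.31, edgeR adjusted p = 1.80e-09). Among tested genes, 8.25% had a larger log2 rise than Slc26a4 in WT and 7.93% in cHyper.

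Tshr (ENSMUSG00000020963, mm10 chromosome 12, 91384563 to 91549808, plus strand, 6.012 kb, 19 exon intervals) had the lowest mean level per length of the 4 genes in every group, as given in TPM further on. The WT mTEClo libraries held 0, 0 and 1 Tshr fragments, or 0, 0 and 0.0469 CPM. The WT mTEChi libraries held 132, 108 and 106 fragments, or 2.80, 2.34 and 3.82 CPM. With 346 fragments against 1, the ratio of the pooled levels was 305, with an exact 95% interval of 54.5 to 12101 that covers counting error only. The edgeR fit gave a log2 change of 7.86 (SE 0.68, adjusted p = 1.0e-07), a size that depends on how a nearly empty group is handled. In cHyper the libraries held 17, 4 and 7 fragments in mTEClo (0.388, 0.0920 and 0.285 CPM) and 109, 106 and 53 in mTEChi (2.39, 2.44 and 2.18 CPM). The groups stayed apart, but the difference was smaller, at 9.20-fold (log2 3.20, SE 0.42, edgeR adjusted p = 1.10e-05). In WT 2.96% of tested genes had a larger log2 rise than Tshr, and in cHyper 18%. The WT share rests on the 1 mTEClo fragment and does not rank Tshr above Tg or Slc26a4. On log2(TPM + 0.1), a scale that shrinks low genes, Tshr rose less than either in both genotypes.

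Tshr and Slc26a4 passed the filter on low counts (0.234 CPM in at least 3 of the 12 libraries) only through the mTEChi groups, so a difference was built into their being tested. Tg also reached that level in all 3 WT mTEClo libraries, and Slc5a5 in all 12 libraries.

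Slc5a5 (ENSMUSG00000000792, mm10 chromosome 8, 70882889 to 70892757, minus strand, 2.928 kb, 15 exon intervals) was present in mTEClo and mTEChi at similar levels. The WT mTEClo libraries held 230, 224 and 109 fragments, or 5.43, 5.18 and 5.11 CPM. The WT mTEChi libraries held 226, 195 and 134, or 4.80, 4.22 and 4.83 CPM. All 3 mTEChi libraries lay below the mTEClo libraries on this scale, but the gap was small and was not called. The log2 change was -0.19 (95% interval -0.70 to 0.33, edgeR adjusted p = 0.508), and its sign turned to 0.032 when library totals replaced TMM scaling and to 0.011 on log2(TPM + 0.1). In cHyper the mTEClo libraries held 385, 179 and 111 fragments (8.80, 4.12 and 4.52 CPM) and the mTEChi libraries 200, 175 and 110 (4.39, 4.04 and 4.52 CPM). The first of those mTEClo libraries stood apart, and the others overlapped mTEChi. The cHyper log2 change was -0.44 (95% interval -0.95 to 0.080, edgeR adjusted p = 0.127). Without cHyper mTEClo replicate 2 or 3 this change was called lower (edgeR adjusted p = 0.0302 and 0.0426), and without replicate 1 the log2 change was -0.034.

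**Figure D2:**
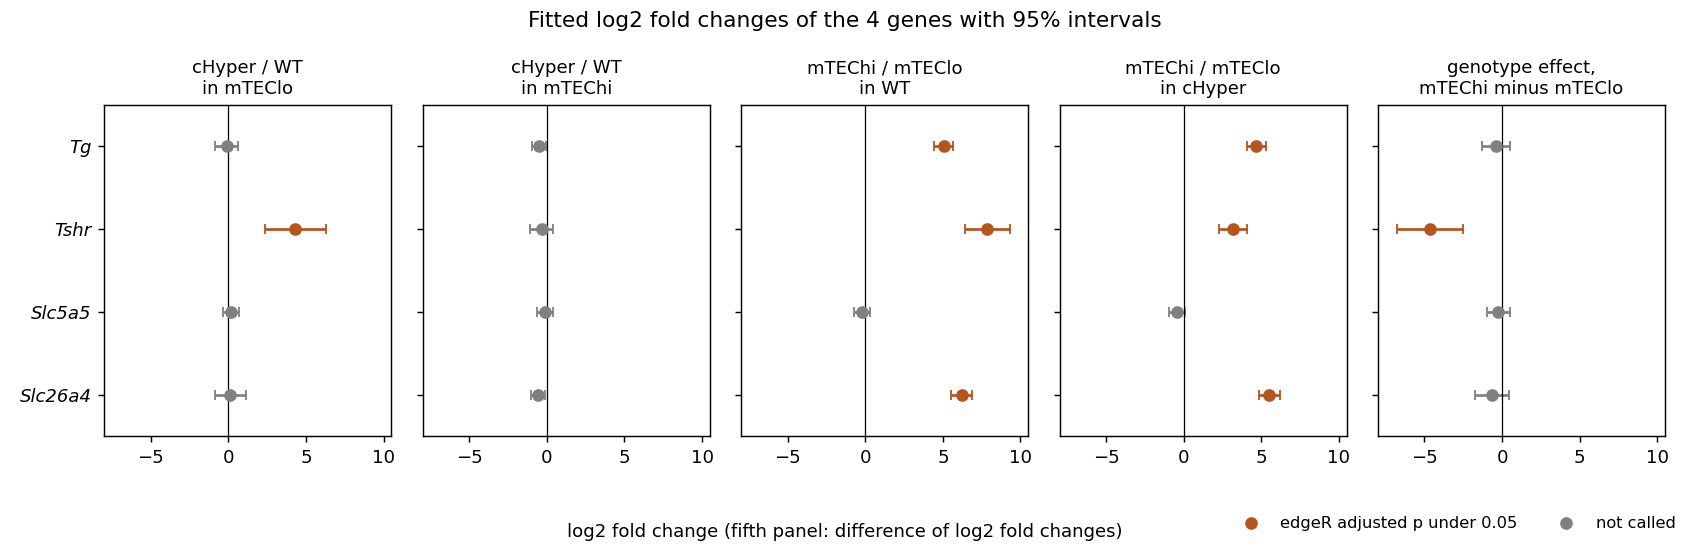
Log2 fold changes of the 4 genes in the 4 comparisons of 2 groups, with the mTEChi effect of genotype minus the mTEClo effect in the fifth panel. The 95% intervals are approximate and were formed from the edgeR F statistic (12 libraries). Points are orange where the adjusted p is under 0.05. Tg, Tshr and Slc26a4 lie right of 0 in both comparisons of mTEChi with mTEClo, and Tshr is the gene called in cHyper against WT mTEClo and in the difference of effects.

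Transcripts of other cell types moved with the cell type as well. All 8 myeloid markers were higher in mTEChi in both genotypes, with a summed level of 31.4 to 35.3 CPM in WT mTEClo, 29.4 to 48.5 in cHyper mTEClo, 511 to 681 in WT mTEChi and 500 to 561 in cHyper mTEChi, and no marker was at 0 in any group. Of 11 thymocyte markers 7 were higher in mTEChi in WT and 6 in cHyper, with sums of 22.0 to 39.4, 28.2 to 51.6, 71.2 to 83.1 and 83.1 to 99.7 CPM, again with none at 0. All 4 tested endothelial markers were higher in mTEChi in both genotypes, with sums of 8.24 to 9.90, 5.98 to 6.60, 23.9 to 27.3 and 18.4 to 19.8 CPM. Fibroblast and cortical epithelial markers went both ways. Of 7 fibroblast markers 3 were higher and 2 lower in WT mTEChi, and 4 and 3 in cHyper mTEChi. Of 6 cortical epithelial markers 2 were higher and 3 lower in WT mTEChi, and 2 and 4 in cHyper mTEChi. The part of all these transcripts in the differences of Tg, Tshr and Slc26a4 was not tested. In sorted bulk cells, fewer cells that express a gene and less RNA per cell cannot be told apart.

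Levels of different genes were compared per length, in the deposited TPM (mean ± SD, n = 3). In WT mTEChi Slc26a4 was highest at 9.90 ± 1.11 TPM, followed by Tg at 4.31 ± 0.546, Slc5a5 at 3.86 ± 0.378 and Tshr at 1.21 ± 0.270. The library ranges of Tg (3.72 to 4.80) and Slc5a5 (3.49 to 4.25) overlapped, so these neighbours in the order did not differ beyond their spread. In cHyper mTEChi the order was Slc26a4 (6.30 ± 0.458 TPM), Slc5a5 (3.39 ± 0.267), Tg (2.87 ± 0.499) and Tshr (0.895 ± 0.0847), and Slc5a5 and Tg again overlapped. In mTEClo Slc5a5 stood alone, at 3.83 ± 0.254 TPM in WT and 4.19 ± 1.89 in cHyper, while the other genes were at most 0.132 TPM on average. Tg, Slc26a4 and Tshr overlapped one another in cHyper mTEClo, and in WT mTEClo Tshr lay below both.

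**Figure D3:**
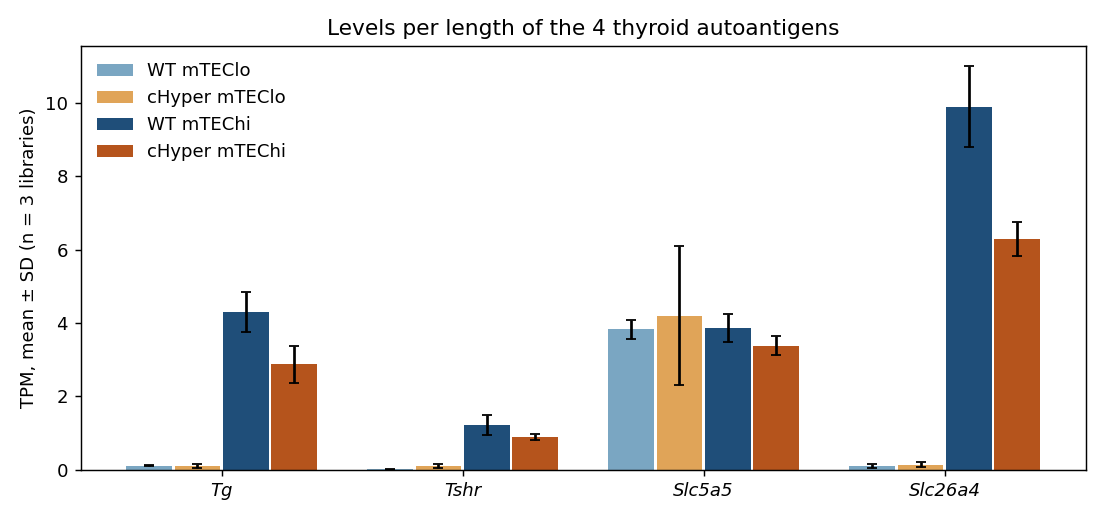
Deposited TPM per group for the 4 genes (bars are means and whiskers SD over 3 libraries, axis from 0). Slc5a5 is the one gene with bars of similar height in mTEClo and mTEChi, from 3.39 to 4.19 TPM, and Slc26a4 has the highest bar at 9.90 TPM in WT mTEChi.

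The second comparison set cHyper mTEClo against WT mTEClo. Tshr rose from near absence to a low level, and Tg, Slc5a5 and Slc26a4 did not pass the test. Thus 1 of the 4 genes was called, against 9.16% of all tested genes. The WT mTEClo libraries held 0, 0 and 1 Tshr fragments and the cHyper mTEClo libraries 17, 4 and 7. The groups did not overlap, but the cHyper libraries spread from 0.0920 to 0.388 CPM. The share of all tested genes without overlap was not counted in mTEClo. In mTEChi 25.7% of tested genes had genotypes without overlap while 1.98% were called, so a lack of overlap is weak evidence by itself. With 28 fragments against 1 the ratio of pooled levels was 26.8, and its exact 95% interval, for counting error only, ran from 4.42 to 1094. The edgeR log2 change was 4.32 (SE 0.93, approximate 95% interval 2.33 to 6.30, adjusted p = 0.00869). That interval was formed from the F statistic and is narrower than the interval for counting error, so it understates the uncertainty. The direction held in 3 of 3 libraries. Tshr passed the filter on low counts only through mTEChi libraries, and a fit on the mTEClo groups alone removed it and did not test it. In the fit of all groups the call held when any 1 of the 12 libraries was left out. The log2 changes were then 3.72 to 6.34 (edgeR adjusted p = 0.00254 to 0.0446). Even so, the mean in cHyper mTEClo, 0.255 ± 0.150 CPM (n = 3), was well below the 2.34 ± 0.140 CPM of cHyper mTEChi.

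Aire rose along with Tshr in cHyper mTEClo, from 14.3 ± 2.60 to 44.5 ± 6.46 CPM (n = 3, edgeR adjusted p = 2.39e-05). Ciita, the transactivator of MHC class II genes, was the other of the 15 mTEC genes that rose there, from 267 ± 23.3 to 380 ± 39.5 CPM (n = 3, edgeR adjusted p = 0.0103). The costimulatory gene Cd80, a marker used to define mTEChi, fell by 1.03 on the log2 scale, to 3.43 ± 0.665 CPM (n = 3, edgeR adjusted p = 0.00550). Markers of other cells moved between the genotypes in mTEClo as well. Of 7 fibroblast markers the collagen gene Col3a1 rose from 24.0 ± 2.94 to 68.4 ± 28.7 CPM and the matrix gene Dpt from 1.70 ± 0.439 to 10.1 ± 4.31, while the growth factor receptor gene Pdgfra fell from 2.73 ± 0.0941 to 0.884 ± 0.376 (n = 3, edgeR adjusted p = 0.000701, 0.000769 and 0.00228). The summed fibroblast level was 147 to 170 CPM in WT mTEClo and 161 to 227 in cHyper mTEClo. Of 6 cortical epithelial markers Tbata rose from 122 ± 14.9 to 191 ± 14.1 CPM (n = 3, edgeR adjusted p = 0.00296), with sums of 2418 to 3400 and 3391 to 3629 CPM. None of the 11 thymocyte markers was called, although their median log2 change was 1.04 against 0.0015 over all tested genes, with sums of 22.0 to 39.4 and 28.2 to 51.6 CPM. Of 8 myeloid markers C1qb fell. The part of these changes in the Tshr result was not tested.

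The other 3 genes showed no called change in cHyper mTEClo. Tg was at 0.468 ± 0.00482 CPM in WT and 0.400 ± 0.241 in cHyper (n = 3), with 50 fragments in each group. The log2 change of Tg was -0.11 (95% interval -0.86 to 0.63, edgeR adjusted p = 0.911), and it was 0.19 without cHyper mTEClo replicate 3, the library with 3 Tg fragments. Slc26a4 was at 0.163 ± 0.0824 and 0.194 ± 0.0974 CPM (n = 3, log2 0.11, 95% interval -0.87 to 1.10, edgeR adjusted p = 0.967). At 18 and 20 fragments per group, changes within that interval were not detectable. Slc5a5 was at 5.24 ± 0.168 and 5.81 ± 2.59 CPM (n = 3, log2 0.15, 95% interval -0.36 to 0.67, edgeR adjusted p = 0.769). Its wide spread in cHyper came from replicate 1 at 8.80 CPM, the library that also held the most Tshr fragments, and without that library the log2 change of Slc5a5 was -0.30.

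The third comparison asked what cHyper changed in mTEChi, where Tg, Tshr and Slc26a4 were expressed most. None of the 4 genes was called by edgeR, against 1.98% of all tested genes. At an unadjusted edgeR p under 0.05, 2 of the 4 passed (Tg and Slc26a4), against 15% of all tested genes. For the same 2 genes the cHyper libraries lay wholly below the WT libraries, and 25.7% of all tested genes had genotypes without overlap in either direction. DESeq2 called 1 of the 4 (Slc26a4), against 6.15% of the 22699 genes to which it gave an adjusted p, and limma-voom called 0, against 2.98%. With the replicate number as a block edgeR called 0 of the 4, against 4.32% (1251 genes in place of 572), with adjusted p = 0.132 for Slc26a4 and 0.175 for Tg.

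Slc26a4 stood at 11.9, 11.3 and 14.7 CPM in WT mTEChi and at 8.65, 8.05 and 8.88 CPM in cHyper mTEChi. All 3 cHyper libraries were lower than all 3 WT libraries. The log2 change was -0.56 (SE 0.21, 95% interval -1.02 to -0.11, edgeR adjusted p = 0.229). The adjusted p was 0.0204 with DESeq2 and 0.0475 when edgeR was fitted on the mTEChi groups alone, a fit that called 1 of the 4 genes against 4.03% of its tested genes, so the call depended on the test.

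Tg stood at 16.4, 13.6 and 16.8 CPM in WT mTEChi and at 12.6, 10.7 and 9.95 CPM in cHyper mTEChi. Here too every cHyper library was below every WT library, by a margin that was narrow between cHyper replicate 1 and WT replicate 2. The log2 change was -0.50 (SE 0.22, 95% interval -0.96 to -0.034, edgeR adjusted p = 0.299), with 0.0504 by DESeq2. Tshr, at 2.80, 2.34 and 3.82 CPM in WT and 2.39, 2.44 and 2.18 in cHyper, overlapped between the genotypes (log2 -0.34, 95% interval -1.06 to 0.38, edgeR adjusted p = 0.677). Slc5a5, at 4.80, 4.22 and 4.83 CPM in WT and 4.39, 4.04 and 4.52 in cHyper, overlapped as well (log2 -0.098, 95% interval -0.62 to 0.42, edgeR adjusted p = 0.889). Between same-numbered libraries Slc5a5 was lower in cHyper in 3 of 3 pairs, by log2 differences of -0.13, -0.064 and -0.095, and it was not called with the block (edgeR adjusted p = 0.850). The intervals of Tshr and Slc5a5 include changes as large as the estimates of Tg and Slc26a4.

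Of the 15 mTEC genes Krt14, Krt5 and Ccl21a, which are typical of mTEClo, rose in cHyper mTEChi, with log2 changes of 1.17, 0.97 and 1.04 (edgeR adjusted p = 0.000215, 0.0101 and 0.0124). The summed myeloid level, 511 to 681 CPM in WT and 500 to 561 in cHyper, overlapped between the genotypes, and the macrophage marker Adgre1 fell from 23.6 ± 2.06 to 13.2 ± 3.41 CPM (n = 3, edgeR adjusted p = 0.0332). Aire was at 1920 ± 2.83 and 1645 ± 321 CPM (log2 -0.22, edgeR adjusted p = 0.548). Whether any of these bear on the lower Tg and Slc26a4 values was not tested.

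Whether the genotype acted differently in mTEChi and mTEClo was tested directly. It was called for 1 of the 4 genes (Tshr), against 2.06% of all tested genes. For Tshr the genotype effect in mTEChi minus that in mTEClo was -4.66 on the log2 scale (SE 1.0, 95% interval -6.80 to -2.52, edgeR adjusted p = 0.0276). The Tshr call was lost when replicate 1 or 2 of WT mTEClo, replicate 1 of cHyper mTEClo, replicate 3 of WT mTEChi or any 1 library of cHyper mTEChi was left out, and over all 12 such fits the adjusted p ran from 0.00903 to 0.0923. With replicates 1 and 2 alone it was -6.53 (edgeR adjusted p = 0.111). Slc26a4 (-0.68, 95% interval -1.77 to 0.42, edgeR adjusted p = 0.616), Tg (-0.39, 95% interval -1.27 to 0.50, edgeR adjusted p = 0.756) and Slc5a5 (-0.25, 95% interval -0.98 to 0.48, edgeR adjusted p = 0.824) were not called. For Aire the same difference was -1.87 (edgeR adjusted p = 0.000941).

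Other genes of hormone synthesis followed the pattern of Tg and Slc26a4 for the most part. Of 11 such genes 8 were higher and 2 lower in WT mTEChi (median log2 2.91, against 0.12 over all tested genes), and 9 were higher and 2 lower in cHyper mTEChi (median 2.38, against 0.13). Of all tested genes, 40.2% were called higher and 29.4% lower in WT mTEChi, and 38.7% and 25.8% in cHyper mTEChi. Between the genotypes 9.16% of all tested genes were called in mTEClo and 1.98% in mTEChi, in either direction. In the difference of effects 2.06% were called. The list counts here and in the paragraphs that follow are to be read beside these shares. A short list with no call in mTEChi is near the share of 1.98% and is not a result about that list. Listed genes nearly absent from mTEClo passed the filter only through mTEChi, as Tshr did.

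Iyd, the deiodinase that recovers iodide from iodotyrosines, rose from 0.179 ± 0.0469 to 10.2 ± 0.989 CPM between WT mTEClo and WT mTEChi (n = 3). Slc5a8, a relative of Slc5a5 that carries monocarboxylates, rose from 2.68 ± 0.432 to 98.0 ± 11.5 CPM (n = 3). Slc26a7, a relative of Slc26a4 needed for iodide handling in the thyroid, rose from 0.210 ± 0.0595 to 5.68 ± 0.614 CPM (n = 3). The potassium channel subunit Kcne2, which supports iodide uptake, rose from 0.0466 ± 0.0463 to 9.65 ± 1.66 CPM (n = 3). Against these, Duoxa1, a maturation factor of the peroxide-producing oxidase Duox1, fell from 11.1 ± 1.46 to 2.21 ± 0.233 CPM (n = 3), and Duox1 was the other gene lower in mTEChi. Between the genotypes, Slc26a7 rose in mTEClo from 0.210 ± 0.0595 to 0.494 ± 0.104 CPM (n = 3, edgeR adjusted p = 0.0294) and Duoxa2 fell (edgeR adjusted p = 0.0356). Slc26a7 shared with Tshr a called difference between the genotype effects (log2 -1.60, edgeR adjusted p = 0.0379). Of other lists, Aire, Ret, Tbata and Col3a1 were called in the same direction and Krt14, Krt5 and Ccl21a in the opposite one. Such a difference was thus not particular to thyroid genes. In mTEChi none of the 11 passed for the genotype (median log2 -0.37, against -0.0037 over all tested genes).

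**Figure D4:**
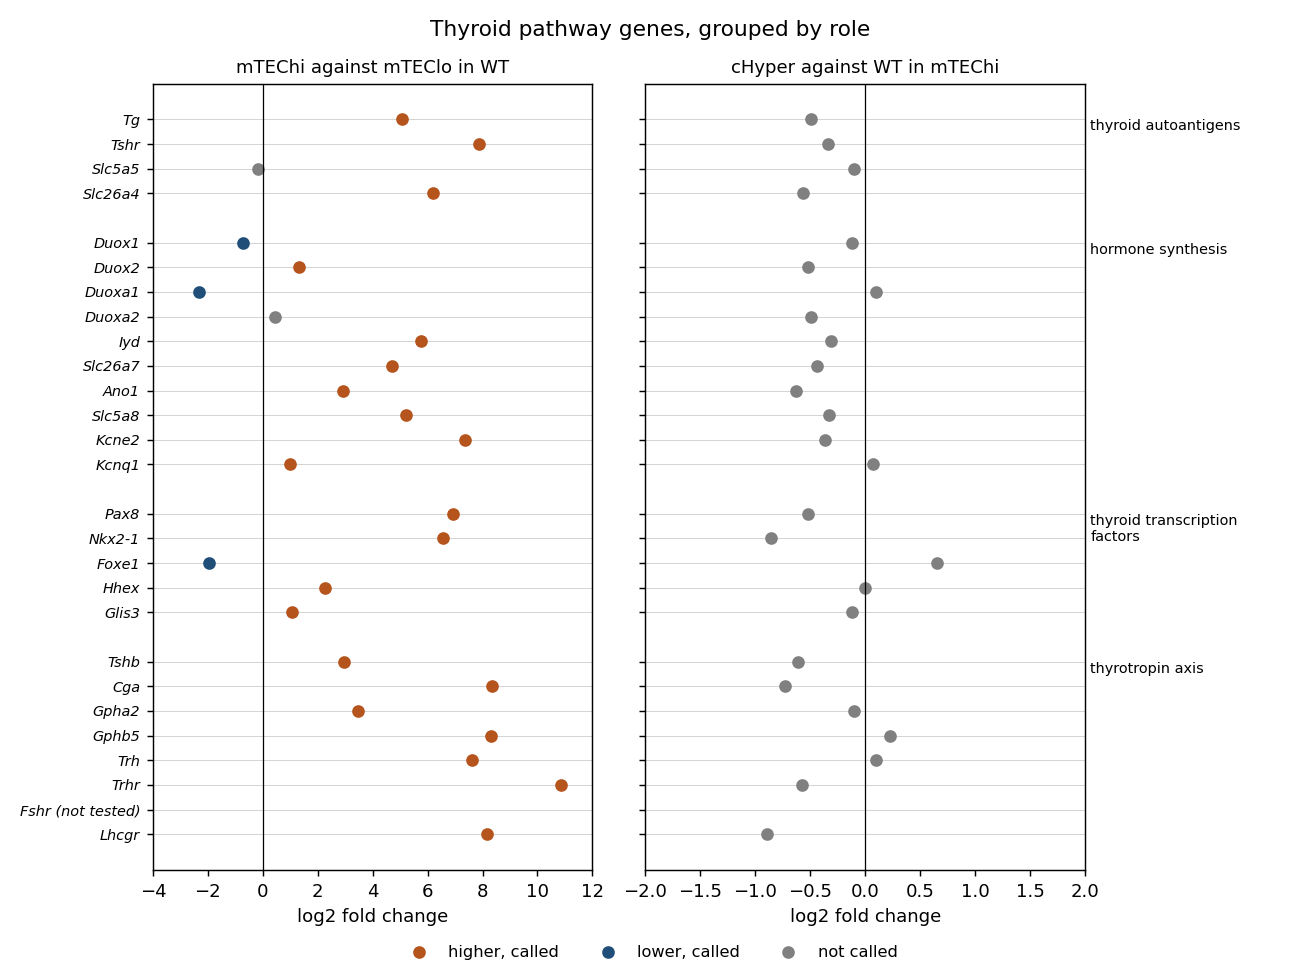
Log2 fold changes of the 4 autoantigen genes and of listed genes of hormone synthesis, thyroid transcription factors and the thyrotropin axis, for mTEChi against mTEClo in WT (left) and cHyper against WT in mTEChi (right), with called genes in colour. Most points on the left lie right of 0, with Duox1, Duoxa1 and Foxe1 called lower, and no gene on the right was called.

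The transcription factors that set up the thyroid were mostly higher in mTEChi as well. Of 5 factors 4 were higher and Foxe1 lower in mTEChi in both genotypes (median log2 2.26 in WT and 3.08 in cHyper). Pax8, which drives Tg and Slc5a5 in thyroid cells, went from 5 fragments in WT mTEClo to 712 in WT mTEChi, a ratio of 126 (exact 95% interval 53.6 to 388). Nkx2-1, its partner factor, went from 2 fragments to 241. Foxe1 fell from 3.47 ± 1.16 to 0.896 ± 0.324 CPM in WT (n = 3, edgeR adjusted p = 0.000146). Glis3, a factor that acts downstream of the thyrotropin receptor, was the factor called between the genotypes, rising in cHyper mTEClo from 10.3 ± 0.526 to 15.1 ± 0.448 CPM (n = 3, edgeR adjusted p = 0.0301). In mTEChi none of the 5 was called for the genotype (median log2 -0.12).

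The hormones and receptors upstream of Tshr, listed together with its relatives Lhcgr and Fshr, were scarce in mTEClo, and most were present in mTEChi. Of 8 listed genes 7 were tested, Lhcgr among them, and all 7 were higher in mTEChi in both genotypes. Their median log2 changes were 8.17 in WT and 6.61 in cHyper (7.60 and 6.32 with empty groups set to 3 fragments). Cga, Gphb5, Trhr and Lhcgr were under the filter level of 0.234 CPM in every mTEClo library. They were tested only through mTEChi, so a difference was built into the count of 7 and into these medians. Cga, the alpha subunit of thyrotropin, went from 0.0465 ± 0.0463 to 16.3 ± 4.03 CPM in WT (n = 3), and Tshb, the beta subunit, from 0.156 ± 0.0728 to 1.32 ± 0.274 (n = 3). Trhr, the receptor for thyrotropin-releasing hormone, had 0 fragments in all mTEClo libraries and 724 in WT mTEChi, at least 213-fold higher when the empty group is set to a floor of 3 fragments in all. The closest relatives of Tshr are the receptors Lhcgr and Fshr. Lhcgr had 0 fragments in mTEClo of either genotype and 121 and 61 in WT and cHyper mTEChi. Fshr was too scarce to be tested, with 2 and 0 fragments in mTEClo and 6 and 3 in mTEChi (WT, then cHyper). Neither Lhcgr nor any other tested gene of this list was called between the genotypes, in mTEClo or in mTEChi (median log2 0.038, or 0.18 with empty groups set to 3 fragments, and -0.57), and the 0 fragments of Lhcgr and Trhr in mTEClo left nothing to compare there.

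Among genes of hormone metabolism, transport and reception, 9 of 11 were higher and 1 lower in WT mTEChi (median log2 2.31), and 9 higher and 2 lower in cHyper mTEChi (median 2.04). Dio1, which activates thyroid hormone, rose from 44.3 ± 10.4 to 216 ± 16.5 CPM in WT (n = 3). Serpina7, the hormone carrier of plasma, and Thra, a thyroid hormone receptor, rose in cHyper mTEClo (edgeR adjusted p = 0.0134 and 0.0306), and no gene of this list was called in cHyper mTEChi. Of 7 genes of thyroglobulin uptake and proteolysis, 4 were higher and 3 lower in mTEChi in both genotypes. Tested genes at large also went both ways, with 40.2% called higher and 29.4% lower in WT, and 38.7% and 25.8% in cHyper. The endocytic receptor gene Lrp2 rose from 0.101 ± 0.104 to 12.2 ± 0.309 CPM in WT (n = 3), and the protease gene Ctsl fell from 2408 ± 449 to 158 ± 26.8 (n = 3). Ctsd rose in cHyper in both cell types and Ctsl in cHyper mTEChi (edgeR adjusted p = 0.000367, 0.0199 and 0.0283).

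Slc26a4 is also a gene of ionocytes, epithelial cells rich in ion transporters that have a counterpart in the thymus. Of 10 ionocyte genes 9 were higher in mTEChi in both genotypes and none was called between the genotypes in mTEClo or mTEChi. Their median log2 changes in cHyper were -0.50 in mTEClo and -0.37 in mTEChi, against 0.0015 and -0.0037 over all tested genes. Their summed level was 17.5 to 19.7 CPM in WT mTEClo, 13.8 to 14.3 in cHyper mTEClo, 83.5 to 93.4 in WT mTEChi and 74.3 to 82.7 in cHyper mTEChi, and no gene of the list was at 0 in any group. Foxi1, the factor that defines ionocytes, rose from 3.82 ± 0.638 to 23.2 ± 4.50 CPM in WT (n = 3), a log2 change of 2.62 beside the 6.20 of Slc26a4. The summed level was lower in cHyper than in WT without overlap in both cell types, a description with no test, whereas Slc26a4 itself overlapped in mTEClo. The same held for the endothelial sums in both cell types. In mTEChi it also held for the sums of the hormone synthesis genes and of the thyroid C cell and parathyroid genes. It was thus not particular to ionocyte genes.

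Other genes related to the 4 by family moved the same way for the most part. Of 20 tested relatives 14 were higher and 4 lower in WT mTEChi, and 14 and 3 in cHyper mTEChi. The shares of all tested genes were 40.2% and 29.4% in WT, and 38.7% and 25.8% in cHyper. Lhcgr, Slc5a8 and Slc26a7 count here and in a list above. The anion exchanger genes Slc26a9 (1.14 ± 0.598 to 26.2 ± 5.19 CPM in WT, n = 3) and Slc26a1 (1.47 ± 0.145 to 11.4 ± 1.34, n = 3) rose with Slc26a4. Slc5a1, the intestinal glucose transporter of the Slc5a5 family, rose from 1.11 ± 0.265 to 12.8 ± 1.35 CPM (n = 3), while Slc5a5 was not called. Of 14 autoantigens of other endocrine organs, 12 were higher and 1 lower in mTEChi in both genotypes (median log2 5.42 in WT and 4.39 in cHyper, or 4.59 and 4.10 with empty groups set to 3 fragments). Only 9 of the 14 had a fragment in WT mTEClo. The others passed the filter only through mTEChi, so their rise was built into their being tested. Gad1, an islet autoantigen, rose from 0.656 ± 0.171 to 37.0 ± 2.67 CPM in WT (n = 3, log2 5.87, between the 5.05 of Tg and the 6.20 of Slc26a4). In cHyper mTEClo Ptprn2 and Cyp11a1 fell (edgeR adjusted p = 0.0102 and 0.0288) and no gene of that list rose. In cHyper mTEChi none of the 14 was called, with a median log2 change of -0.29 against -0.0037 over all tested genes. Of 7 genes of thyroid C cells and parathyroid, 5 were higher and 1 lower in WT mTEChi, and 3 and 1 in cHyper. The 3 called higher in cHyper are near the share of all tested genes. Calca, the calcitonin gene, rose from 1.30 ± 0.344 to 118 ± 42.6 CPM in WT (n = 3), and Ret was the one gene of these 7 that rose in cHyper mTEClo (edgeR adjusted p = 0.0350).

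The genes most like each of the 4 were those with the smallest root mean square difference of centred log2 CPM over the 12 libraries, among 16987 genes. They share the libraries and, for the 3 genes that rise, the large step between mTEClo and mTEChi, so the likeness is a description. For Tg these were C1qc (0.269), a complement gene made mainly by macrophages, Nid1 (0.348), a basement membrane gene, and Cela1 (0.358), an elastase gene. For Slc26a4 they were Pdzph1 (0.237), Lrp8 (0.238) and Ly9 (0.252). For Tshr the nearest genes were less close, namely Serpina3b (0.429), Fcrl6 (0.431) and Adra2c (0.449). For Slc5a5 they were Fdx1 (0.162), Zcrb1 (0.176) and Cd72 (0.178). Among the 4 genes themselves Tg and Slc26a4 were closest (0.790), Tshr lay at 1.13 from Tg and 1.11 from Slc26a4, and Slc5a5 lay 2.42 to 2.97 from the other 3.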

How the data were processed

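RNA was sequenced as paired, strand-marked poly(A) libraries, per the labels' protocols. The authors deposited 1 table of fragment counts, TPM and gene lengths with 12 columns of each kind, 1 per group and replicate. The 20 labelled samples include 2 runs for replicates 1 and 2, which the table holds combined. Per the submitters' processing notes, the build was mm10 and the authors' tools included featureCounts (Subread 2.0.1), SAMtools 1.9 and TopHat2 2.1.1. The sources used here give no strand setting, annotation release or filter. The deposited TPM differed from TPM recomputed here from counts and lengths by at most 0.207.

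The test was the quasi-likelihood F test of edgeR 4.0.16 (R 4.3.3) on the counts, after TMM scaling and filterByExpr by group. It used a single fit of the 12 libraries on group means (8 residual degrees of freedom), with Benjamini-Hochberg adjustment over 28932 genes. The fits kept the edgeR default prior count. A prior count of 2 was used only for the log2 CPM behind same-numbered differences, library correlations and likeness. The code was tested on simulated data. Deviations of same-numbered libraries from their group means correlated by 0.061 to 0.233, above 0.1 in 14 of 18 pairs, and 12 of 12 libraries correlated best with their own number. All 3 pairs were above 0.1 in cHyper against WT mTEChi (0.136 to 0.206) and between the cell types of cHyper (0.104 to 0.125), where the numbers were taken as pairs, and 2 of 3 in each of the other comparisons of 2 groups. This pairing comes from the data and not from the labels. The SE of a log2 change was computed here as the size of the change over the square root of F. The 95% intervals of log2 changes use that SE and a t quantile. They are approximate, most of all where a group is nearly empty. Exact intervals of fragment ratios are conditional binomial at the 95% level and cover counting error only. The 10 alternatives were DESeq2 size factors, library totals, no filter, DESeq2 1.42.0, limma-voom (limma 3.58.1), the compared groups only, a replicate block, each library left out, replicates 1 and 2 only, and log2(TPM + 0.1).

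The 4 genes and the gene lists were chosen with earlier results of these data known. The text names the 4 genes, Aire and Fezf2, per list and comparison up to 4 called genes with the smallest p, and the 3 genes most like each of the 4 (mean of at least 0.5 CPM, predicted genes, pseudogenes and receptor segments left out). The following were named after seeing their values, outside that rule: Tshb, Lhcgr, Fshr, Duox1, Duoxa1, Sla, Gm17140, Xist and Ddx3y. A few listed genes within the rule count in their lists and are not reported here. Sequences are from RefSeq.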

Additional observations from a re-analysis of the deposited data

Results flagged for a closer look

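The genotype effect on Tshr differed between the cell types by the test of the difference itself, at -4.66 on the log2 scale (mTEChi minus mTEClo, edgeR adjusted p = 0.0276). Tshr was higher in cHyper than in WT in mTEClo in 3 of 3 libraries, whereas in mTEChi the genotypes overlapped. The difference rests on 1 Tshr fragment in WT mTEClo against 28 in cHyper mTEClo, and its call ended when any of 7 single libraries was left out.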

How the results depend on the processing

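Of the 20 results of the 4 genes, 20 kept their direction and their side of the threshold with DESeq2 size factors, without the count filter, with limma-voom and with the replicate block. The block changed no call of the 4 genes, and it moved the genes called in cHyper against WT mTEChi from 572 to 1251 and in the difference of effects from 595 to 1186. With DESeq2 these counts were 1396 and 1407, with limma-voom 862 in mTEChi, without the filter 1103 for the difference, on the compared groups only 1126 in mTEChi, with replicates 1 and 2 only 312 and 282, and 296 to 678 and 354 to 629 with 1 library left out. The share of called genes that were higher in cHyper mTEChi was 78.8%, or 66.0% with DESeq2 size factors and 64.4% with library totals. The median of all genes in WT mTEChi against mTEClo was 0.12, 0.22 and 0.34 with these scalings.

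In mTEChi the Slc26a4 change was called with DESeq2 (-0.62, adjusted p = 0.0204) and on the compared groups only (-0.56, edgeR adjusted p = 0.0475), which made 1 of the 4 genes called in place of 0. In mTEClo the count of called genes was 0 on the compared groups only, where the filter removed Tshr. With replicates 1 and 2 only the Tshr difference of effects was -6.53 and 0 of the 4 were called, Slc26a4 turned to -0.25 and Tg to 0.19 in mTEClo. Slc5a5 in WT mTEChi against mTEClo turned to 0.032 with library totals and 0.011 on log2(TPM + 0.1). That TPM scale, which has no test here and shrinks low genes by its pseudocount, gave Slc26a4 as 5.59 in WT and 4.83 in cHyper, Tg as 4.37 and 3.97, Tshr as 3.62 and 2.43 between the cell types, and Tshr as 0.81 in cHyper against WT mTEClo.

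With 1 library left out, 225 of 240 values kept direction and call. The ranges were -0.30 to 0.36 for Slc5a5, -0.37 to 0.19 for Tg, -0.23 to 0.68 for Slc26a4 and 3.72 to 6.34 for Tshr in mTEClo, -0.64 to -0.034 for Slc5a5 between the cell types of cHyper, and -6.68 to -4.06 for Tshr and -0.46 to 0.20 for Slc5a5 in the difference of effects. The members called ran from 3 to 4 between the cell types of cHyper and from 0 to 1 in the difference. Signs turned for Slc26a4 in mTEClo when replicate 1 of WT mTEClo (-0.23) or replicate 2 (-0.018) or 3 (-0.18) of cHyper mTEClo was left out. Low depth limits Tshr, Slc26a4 and Tg in mTEClo, at 1 to 50 fragments per group. The cause of these shifts was not tested.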
